A study of Mus musculus with 7 samples.

Results

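The genes described here are 41 interferon-stimulated genes, chosen by symbol as known targets of interferon signalling, out of 24328 genes listed for each kidney library. All 41 were found, and all 41 passed the filter on low values (a mean of at least 5 normalized counts over the 4 mice), as did 17283 genes in all. Kidneys were taken at 4 weeks of age from 3 LBR-null mice (genotype Lbr ic-J/ic-J, a loss-of-function allele of the lamin B receptor in the inner nuclear membrane) and from 1 WT littermate (Lbr+/+), all on the C57BL/6J strain, and the labels give no treatment. The allele is inherited, so every cell of an LBR-null animal carries it. Polyadenylated RNA of the right kidney was sequenced. LBR-null mice 4001 and 4007 and WT mouse 4009 gave 2 libraries each, and LBR-null mouse 4002 gave 1, which makes 5 LBR-null and 2 WT libraries. Libraries of a mouse were averaged before any comparison, since they are not separate animals. The comparison addressed how loss of LBR went with the RNA level of interferon-stimulated genes, and with 1 WT mouse the genotype cannot be told apart from that animal.

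Interferons are secreted signals that cells release when they sense viral or other misplaced nucleic acid. Type I interferons act through a receptor present on most cells, and the kinases JAK1 and TYK2 then activate transcription factors, among them STAT2, which acts with IRF9 at the interferon-stimulated response element of their target genes. Interferon gamma, the product of T and NK cells, acts through a receptor of its own. The induced proteins sense foreign RNA, stop translation, modify proteins with ISG15, or attack the vacuoles in which microbes live, and a low level of many of them is kept in healthy tissue.

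The libraries held 20694016 to 26333284 reads on genes, so the deepest had 1.27 times the reads of the shallowest, and 1 read was worth 0.787 to 1.15 normalized counts. Markers of kidney tubules and podocytes (Slc34a1, Lrp2, Slc12a1, Umod, Slc12a3, Aqp2, Atp6v1g3 and Nphs1) were present in every library. Lbr itself was at 330 and 314 normalized counts in mouse 4001, 340 in mouse 4002, 495.5 and 447.5 in mouse 4007 and 416 and 381 in the WT mouse, so its RNA level does not check the genotype. Mouse 4001 stood apart. Its libraries held both Xist (5352 and 6218 normalized counts) and the Y-linked Ddx3y (149 and 133), while mouse 4007 was high in Xist alone (10160 and 9718, with Ddx3y at 49.4 and 39.2), and mice 4002 and 4009 were high in Ddx3y alone (1269 to 1516, with Xist at 31.7 to 65.3). The labels give no sex, and results that rest on mouse 4001 are given with and without it.

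The promoters of the members are shown first, since the interferon-stimulated response element was searched for in them. RefSeq promoters (build GRCm38.p6, 250 bases before to 50 after each start) were found for 31 of the 41 members, and each of these matched 1 place in mm9, the build of the files, base for base. Those of Dhx58, Zbp1, Oas2, Mx1, Mx2, Usp18, Iigp1, Parp14, Rtp4 and Ifi27l2a were not used here. The core of the interferon-stimulated response element, GAAANNGAAA on either strand, stood in the promoters of 20 of the 31 members (64.5%), and in 3.99% of the 27025 genes with a promoter in the table. With 1 mismatch allowed outside the free bases it stood in 29 of 31 members (93.5%) and in 38.9% of all genes. The interferon gamma-activated site, TTCNNNGAA, reads alike on both strands and stood in 10 of 31 members (32.3%) and 9.55% of all genes. A match is a stretch of letters and not a measured binding site.

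Stretches upstream of 6 members are printed on the strand of the gene, 5′ to 3′, with each match to GAAANNGAAA or its reverse complement in capitals. Overlapping matches form 1 run of capitals. Isg15, Bst2, Gbp3 and Ifit1 were lower in LBR-null kidneys, while Ifit3 and Rsad2 overlapped the WT libraries.
Isg15: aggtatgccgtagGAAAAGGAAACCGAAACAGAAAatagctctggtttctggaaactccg
Bst2: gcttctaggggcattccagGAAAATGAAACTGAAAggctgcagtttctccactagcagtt
Gbp3: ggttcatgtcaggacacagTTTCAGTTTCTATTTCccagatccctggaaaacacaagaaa
Ifit1: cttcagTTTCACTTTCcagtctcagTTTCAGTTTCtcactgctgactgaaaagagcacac
Ifit3: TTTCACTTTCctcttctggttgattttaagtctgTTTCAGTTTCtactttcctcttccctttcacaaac
Rsad2: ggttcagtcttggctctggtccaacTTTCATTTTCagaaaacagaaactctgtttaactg
In mm9 the stretches lie at chr4:155574959-155575018 (minus strand), chr8:74061461-74061520 (minus strand), chr3:142222944-142223003 (plus strand), chr19:34715269-34715328 (plus strand), chr19:34657863-34657931 (plus strand) and chr12:27141403-27141462 (minus strand), in the same order, each upstream of its gene model. Isg15 had 3 overlapping matches, Bst2, Gbp3, Ifit1 and Ifit3 had 2 each, and Rsad2 had 1. The median log2 fold change was -0.94 over the 20 members with a match and -0.61 over the 11 without. Ifit2, the member with the largest difference upward, had no exact match in its RefSeq promoters but had a match with 1 mismatch. Oasl2 and Irf7, with log2 fold changes of -1.52 and -1.10, had no exact match either. Ifit3, the other member above 0 (0.37), had 2 exact matches. Among the 12862 tested genes with a promoter in the table, 468 had the element (56, or 12.0%, at least 2-fold lower in LBR-null kidneys) and 12394 had none (851, or 6.87%). Without the members the share of genes with the element that were 2-fold lower was 10.7% (48 of 448). Their median log2 fold change was -0.042, against 0.004 over the genes without the element. Interferon-induced genes other than the members were not taken out.

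Most of the 41 genes were lower in LBR-null kidneys than in the WT kidney. The log2 fold change, LBR-null against WT on log2(normalized counts + 1), was below 0 for 39 of them, with a median of -0.91 and a middle range of -1.21 to -0.48, while over all 17283 genes tested the median was 0.01 and 49.5% were below 0. In 36 members (87.8%) all 5 LBR-null libraries were below both WT libraries, where 25.7% of all genes tested were. Only Ifit2 was above both WT libraries in all 5 LBR-null libraries (25.5% of all genes). Ifit3, Oas3, Rsad2 and Ifi44 overlapped the WT libraries. In bulk tissue fewer cells of a type and less RNA per cell cannot be told apart, and the summed macrophage markers were also lower (3346 to 3911 against 4764 and 4826 normalized counts), a part in the result that was not tested.

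The size of the differences was moderate. By a 2-fold rule (a ratio of at least 2 in either direction between the LBR-null mean over mice and WT) 16 members (39.0%) were lower, beside 7.04% of all genes, and 1 member, Ifit2, was higher, beside 14.5% of all genes. No gene passed an adjusted p of 0.05 in limma, members or others (0.0% of 17283 genes), and the adjusted p of the members ran from 0.0939 to 0.760. At an unadjusted p under 0.05 limma counted 21 members lower (8.05% of all genes) and 1 higher (10.7%). With 3 mice against 1, no exact permutation test of a single gene can give a one-sided p below 0.25. The test rests on the spread among the 3 LBR-null mice, and the lone WT mouse was taken to vary as they do.

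Tests on the recovered reads differed in how many genes they called. edgeR's quasi-likelihood test called no member at an adjusted p under 0.05 and 0.162% of all genes, and 24 members had an unadjusted p under 0.05, as did 19.2% of all genes. DESeq2 called 12 members lower at an adjusted p under 0.05 (3.67% of the 16612 genes with an adjusted p) and 1 higher (3.39%). The 12 were Irf7, Oas1a, Oasl2, Isg15, Usp18, Gbp3, Gbp7, Iigp1, Igtp, Bst2, Ifitm3 and Rtp4, and the higher one was Ifit2. Both tools gave a log2 fold change below 0 for 39 of 41 members.

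**Figure D1:**
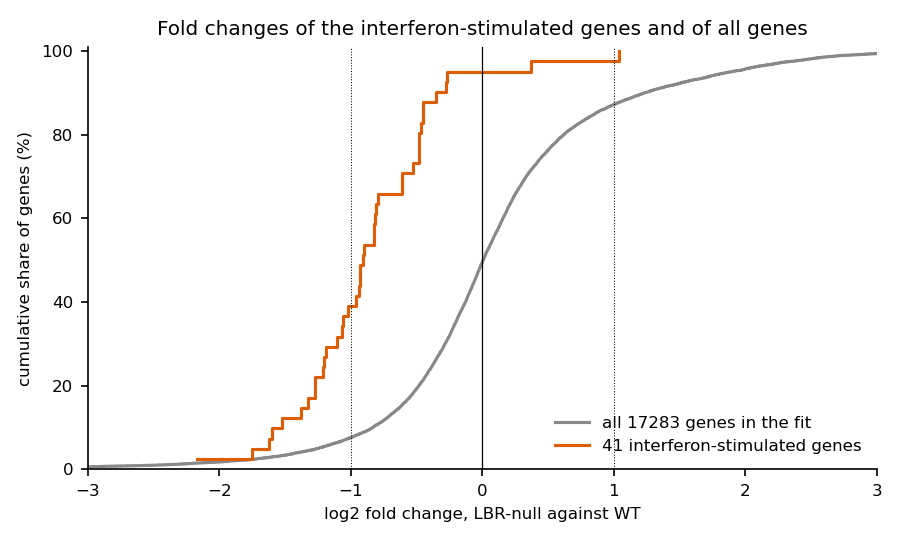
Cumulative share of genes (y axis, percent) by log2 fold change of LBR-null against WT kidneys (x axis), for the 41 interferon-stimulated genes (orange) and all 17283 genes tested (grey); dotted lines mark 2-fold, and the axis stops at -3 and 3. The member curve lies to the left of the curve of all genes, with 95.1% of members and 49.5% of all genes below 0.

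**Figure D2:**
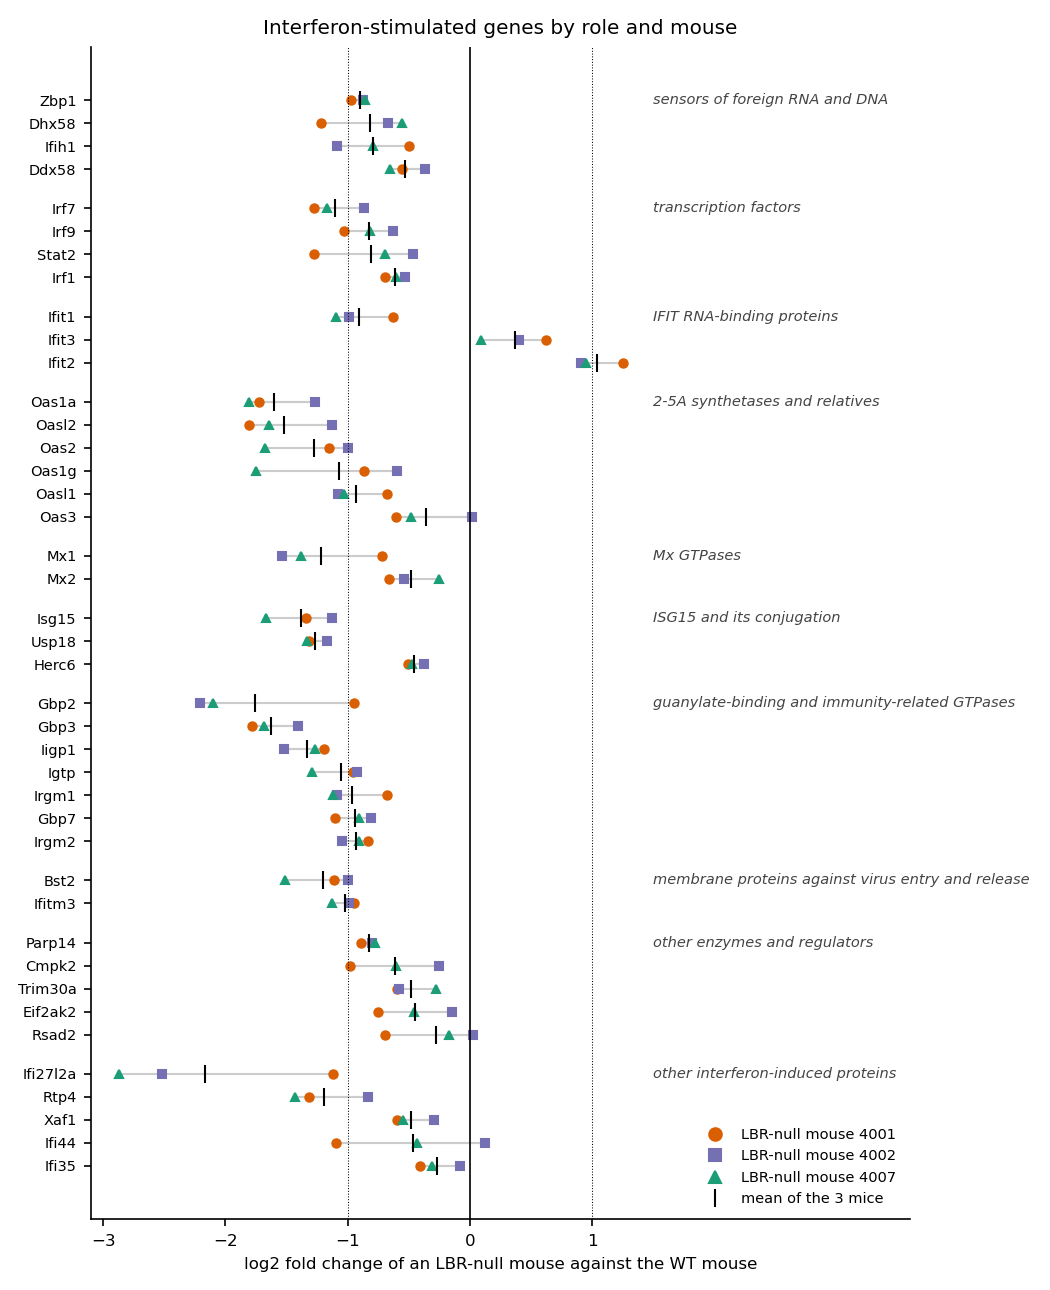
Log2 fold change against WT of the LBR-null mice, 1 by 1 (x axis) for the 41 members, grouped by role (y axis); symbols are mice, grey lines join them, black ticks are their mean and dotted lines mark 2-fold. In 36 members all 3 mice lie left of 0, and Ifit2 and Ifit3 lie right of it in all 3.

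The sensors of foreign nucleic acid were lower by less than 2-fold. Ddx58 (RIG-I) and Ifih1 (MDA5) detect viral RNA, Dhx58 (LGP2) modulates them, and Zbp1 binds nucleic acid in the left-handed Z form. All 4 were below both WT libraries in all 5 LBR-null libraries, as were 25.7% of all genes tested, with log2 fold changes from -0.53 for Ddx58 to -0.90 for Zbp1, and limma's adjusted p ran from 0.269 to 0.341. Their summed level was 982 to 1076 normalized counts in the LBR-null libraries and 1576 and 1627 in the WT libraries.

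The transcription factors of the response were lower in every LBR-null library as well. Stat2, a transcription factor of type I signalling, had 426 and 401 normalized counts in mouse 4001, 728 in mouse 4002 and 611 and 628 in mouse 4007, against 983 and 1025 in the WT libraries (log2 fold change -0.81, SE 0.36, limma's adjusted p = 0.291). The LBR-null libraries were all lower, those of mouse 4001 the most. Irf9, the DNA-binding part of the same complex, had 489 and 456 normalized counts in mouse 4001, 624 in mouse 4002 and 576 and 520.4 in mouse 4007, against 978 and 952 in the WT libraries (log2 fold change -0.82, SE 0.27, limma's adjusted p = 0.176). Irf1, a factor induced by interferon gamma, had 443 and 564 normalized counts in mouse 4001, 566 in mouse 4002 and 552 and 525 in mouse 4007, against 824 and 811.5 in the WT libraries (log2 fold change -0.61, SE 0.24, limma's adjusted p = 0.246). The Irf1 values of the 3 LBR-null mice lay close together, and its log2 fold change was the nearest to 0 of the 4 factors. Irf7, which amplifies type I interferon production, had the largest difference of the group, with a log2 fold change of -1.10 and an adjusted p of 0.125 in limma.

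The IFIT genes split. Their proteins bind viral RNA, and all 3 members lie in 1 cluster on chromosome 19. Ifit1 (chr19:34715361-34724499) had 312 and 281 normalized counts in mouse 4001, 230.4 in mouse 4002 and 210.5 and 217 in mouse 4007, against 439 and 479.5 in the WT libraries (log2 fold change -0.91, SE 0.31, limma's adjusted p = 0.194). Ifit2 (chr19:34625184-34650909) had 1949 and 1980 normalized counts in mouse 4001, 1551 in mouse 4002 and 1641 and 1557 in mouse 4007, against 780.4 and 868.5 in the WT libraries (log2 fold change 1.04, SE 0.25, limma's adjusted p = 0.117). So the LBR-null libraries were all below the WT libraries for Ifit1 and all above them for Ifit2. Ifit3 (chr19:34658021-34663221) had 2538 and 2100 normalized counts in mouse 4001, 1984 in mouse 4002 and 1662 and 1540 in mouse 4007, against 1463 and 1546 in the WT libraries (log2 fold change 0.37, SE 0.28, limma's adjusted p = 0.528), and its libraries overlapped. Within a library the ratio of Ifit2 to Ifit1 was 6.24 to 7.80 in the LBR-null libraries and 1.78 and 1.81 in the WT libraries, a ratio that no scaling of whole libraries can alter. The ratio of Ifit3 to Ifit1 was 7.10 to 8.61 against 3.34 and 3.23. Both ratios were chosen after the values were seen.

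The rest of the cluster, also looked at after the values were seen, went the way of Ifit2 more than of Ifit1. Ifit1bl1 (chr19:34667378-34676458, named Gm14446 in the mm9 annotation), an Ifit1-like gene, had 303, 274, 140.1, 164 and 172 normalized counts in the LBR-null libraries and 39.4 and 39.8 in the WT libraries (log2 fold change 2.23, SE 0.47, limma's adjusted p = 0.107). Its lowest LBR-null library was at 140 and its higher WT library at 39.8, and its log2 fold change was the furthest from 0 of the 6 tested genes of the cluster. Ifit1bl2 had 60.9, 119, 104, 81 and 108 normalized counts in the LBR-null libraries and 57.5 and 54.3 in the WT libraries (log2 fold change 0.77), again with no overlap. Ifit3b had 672, 614, 377.5, 371 and 325 normalized counts in the LBR-null libraries and 356 and 359 in the WT libraries, and here only mouse 4001 lay far above WT. Ifit3 and Ifit3b are near-identical copies, and the treatment of reads that fit both is not given in the sources used here, so the split between them is uncertain. Within 300 kb on either side of the cluster, 7 other genes were tested, of which Fas and Pank1 had log2 fold changes of 1.52 and 0.82, and the other 5 were below 0.

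**Figure D3:**
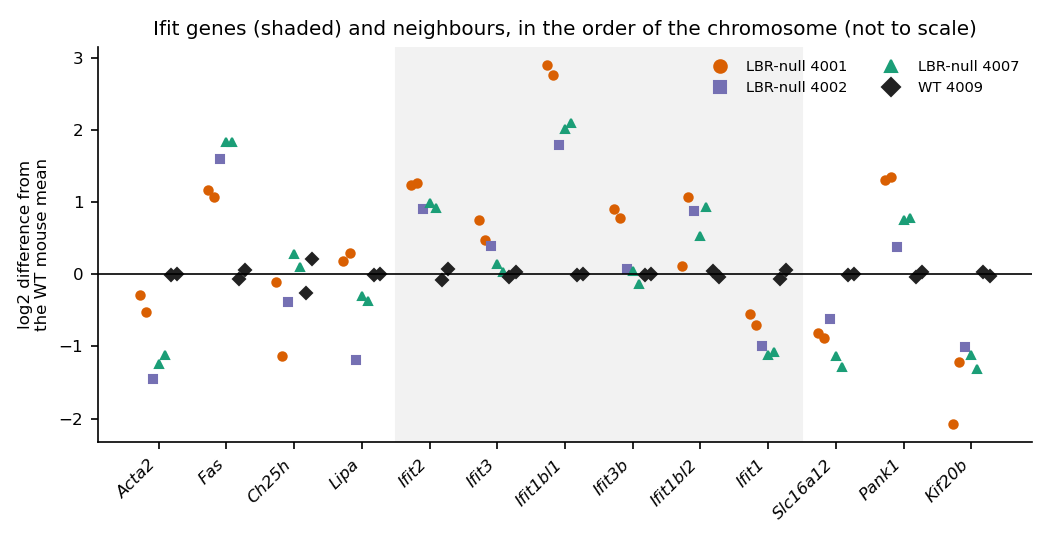
Log2 difference of each library from the mean of the WT mouse (y axis, log2 of normalized counts + 1) for the 6 tested Ifit genes (shaded) and 7 neighbours in chromosome order (x axis, not to scale); symbols are mice, 1 point a library. Ifit1bl1 and Ifit2 lie above the WT points in all 5 LBR-null libraries, and Ifit1, at the other end of the shaded block, lies below them.

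The 2-5A synthetases make the second messenger that switches on RNase L, and lie in 2 groups on chromosome 5. Oas1a (chr5:121346265-121357536) had 32.1 and 37.3 normalized counts in mouse 4001, 48.1 in mouse 4002 and 33.5 and 31.9 in mouse 4007, against 119.7 and 115 in the WT libraries (log2 fold change -1.60, SE 0.43, limma's adjusted p = 0.131). Oas2 (chr5:121180342-121199862) had 45.9 and 32.8 normalized counts in mouse 4001, 43.9 in mouse 4002 and 21.4 and 32.8 in mouse 4007, against 89.8 and 87.8 in the WT libraries (log2 fold change -1.28, SE 0.46, limma's adjusted p = 0.208). Oasl2 (chr5:115346943-115362243), a relative, had 176 and 153.5 normalized counts in mouse 4001, 264 in mouse 4002 and 196 and 174 in mouse 4007, against 554 and 602.5 in the WT libraries (log2 fold change -1.52, SE 0.35, limma's adjusted p = 0.114). In these genes the highest LBR-null library was at 41.9%, 52.3% and 47.7% of the lower WT library. Oas1g and Oasl1 were also below both WT libraries throughout (25.7% of all genes tested), with log2 fold changes of -1.07 and -0.93. Oas3 had 9.19 to 20.6 normalized counts in the LBR-null libraries and 24.4 and 16.3 in the WT libraries, few reads by any measure. Oas1a and Oas1g are close copies of each other, and reads may have been split between them.

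The Mx GTPases, which block the transport of viral particles, were rare. Mx1 had 17.2 and 11.5 normalized counts in mouse 4001, 7.74 in mouse 4002 and 6.52 and 10.9 in mouse 4007, against 25.2 and 23.5 in the WT libraries (log2 fold change -1.21, SE 0.58, limma's adjusted p = 0.325). All LBR-null libraries were lower, on 7 to 15 reads each. The C57BL/6J strain carries a defective Mx1 allele. Mx2 had a log2 fold change of -0.48.

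ISG15 is a ubiquitin-like protein, Herc6 its main ligase in the mouse, and USP18 removes ISG15 and dampens the receptor. Isg15 (chr4:155573533-155574927) had 123 and 87 normalized counts in mouse 4001, 121 in mouse 4002 and 73.6 and 93 in mouse 4007, against 270.1 and 263 in the WT libraries (log2 fold change -1.38, SE 0.36, limma's adjusted p = 0.127). Usp18 (chr6:121195924-121220934) had 103 and 99.4 normalized counts in mouse 4001, 113 in mouse 4002 and 96.9 and 104 in mouse 4007, against 246 and 262 in the WT libraries (log2 fold change -1.27, SE 0.32, limma's adjusted p = 0.122). The 5 LBR-null libraries of Usp18 differed by at most 1.16-fold, and the highest was at 45.8% of the lower WT library. Herc6 was lower by less, with a log2 fold change of -0.45.

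The guanylate-binding proteins and immunity-related GTPases attack the membranes of vacuoles that hold microbes, and respond most to interferon gamma. All 7 members (Gbp2, Gbp3, Gbp7, Iigp1, Igtp, Irgm1 and Irgm2) were below both WT libraries in all 5 LBR-null libraries (25.7% of all genes tested), and all 7 had an unadjusted p under 0.05 in limma (8.05% of all genes, lower). Their summed level was 2020 to 2411 normalized counts in the LBR-null libraries and 4782 and 4914 in the WT libraries. Gbp3 (chr3:142223016-142236173) had 181 and 220.1 normalized counts in mouse 4001, 260.5 in mouse 4002 and 227 and 201 in mouse 4007, against 691 and 695 in the WT libraries (log2 fold change -1.63, SE 0.29, limma's adjusted p = 0.0939). That adjusted p was the lowest among the members, and edgeR's and DESeq2's adjusted p for Gbp3 were 0.0811 and 0.000198. Gbp2 (chr3:142283566-142300972) had 227 and 194 normalized counts in mouse 4001, 87.7 in mouse 4002 and 92.2 and 96.6 in mouse 4007, against 395 and 422.5 in the WT libraries (log2 fold change -1.75, SE 0.54, limma's adjusted p = 0.163). Mouse 4001 was 2.32 times as high as the mean of mice 4002 and 4007, and at 51.6% of the WT mouse. Iigp1 had 333 and 297 normalized counts in mouse 4001, 251 in mouse 4002 and 319 and 279.8 in mouse 4007, against 717 and 729 in the WT libraries (log2 fold change -1.33, SE 0.28, limma's adjusted p = 0.107). The remaining 4 had log2 fold changes from -1.06 for Igtp to -0.93 for Irgm2.

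Bst2 (tetherin) holds budding virus at the cell surface and Ifitm3 hinders the fusion of entering virus. They were the most abundant members per length in the WT kidney, at 1612 and 4977 normalized counts per kb of exon. Ifitm3 (chr7:148195485-148196669) had 1976 and 1529 normalized counts in mouse 4001, 1703 in mouse 4002 and 1501 and 1582 in mouse 4007, against 3304 and 3444 in the WT libraries (log2 fold change -1.02, SE 0.23, limma's adjusted p = 0.114). Bst2 (chr8:74058163-74061336) had 683 and 459 normalized counts in mouse 4001, 616 in mouse 4002 and 426 and 438 in mouse 4007, against 1254 and 1209 in the WT libraries (log2 fold change -1.21, SE 0.29, limma's adjusted p = 0.115). The highest LBR-null library was at 59.8% (Ifitm3) and 56.5% (Bst2) of the lower WT library, so the pattern was not limited to members with few reads.

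The other enzymes and regulators were among the least different members. Rsad2 (viperin) and Cmpk2 lie next to each other and act on nucleotides, Eif2ak2 (PKR) halts translation on double-stranded RNA, Parp14 attaches ADP-ribose, and Trim30a is a ubiquitin ligase. Parp14 had a log2 fold change of -0.82, Cmpk2 of -0.61, Trim30a of -0.48 and Eif2ak2 of -0.45. In each of them all LBR-null libraries were below both WT libraries, as in 25.7% of all genes tested. Rsad2 had 1326 and 1418 normalized counts in mouse 4001, 2267 in mouse 4002 and 2026 and 1928 in mouse 4007, against 2210 and 2234 in the WT libraries. Mouse 4002 was level with the WT mouse in Rsad2, and mouse 4001 was the lowest.

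Of the remaining interferon-induced proteins, Ifi27l2a (chr12:104680377-104681890) had the largest difference of all 41 members. Ifi27l2a had 86.1 and 80.8 normalized counts in mouse 4001, 30.9 in mouse 4002 and 24.2 and 23.7 in mouse 4007, against 179 and 185.5 in the WT libraries (log2 fold change -2.17, SE 0.71, limma's adjusted p = 0.178). The highest LBR-null library was at 48.2% of the lower WT library, and mouse 4001 was 3.04 times as high as the mean of mice 4002 and 4007. Rtp4 (chr16:23610005-23614308), a chaperone of receptors, had 214 and 181 normalized counts in mouse 4001, 276 in mouse 4002 and 181 and 183 in mouse 4007, against 494 and 489 in the WT libraries (log2 fold change -1.19, SE 0.34, limma's adjusted p = 0.142). Xaf1, Ifi44 and Ifi35 had log2 fold changes of -0.48, -0.47 and -0.27, the last being the smallest difference of any member.

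**Figure D4:**
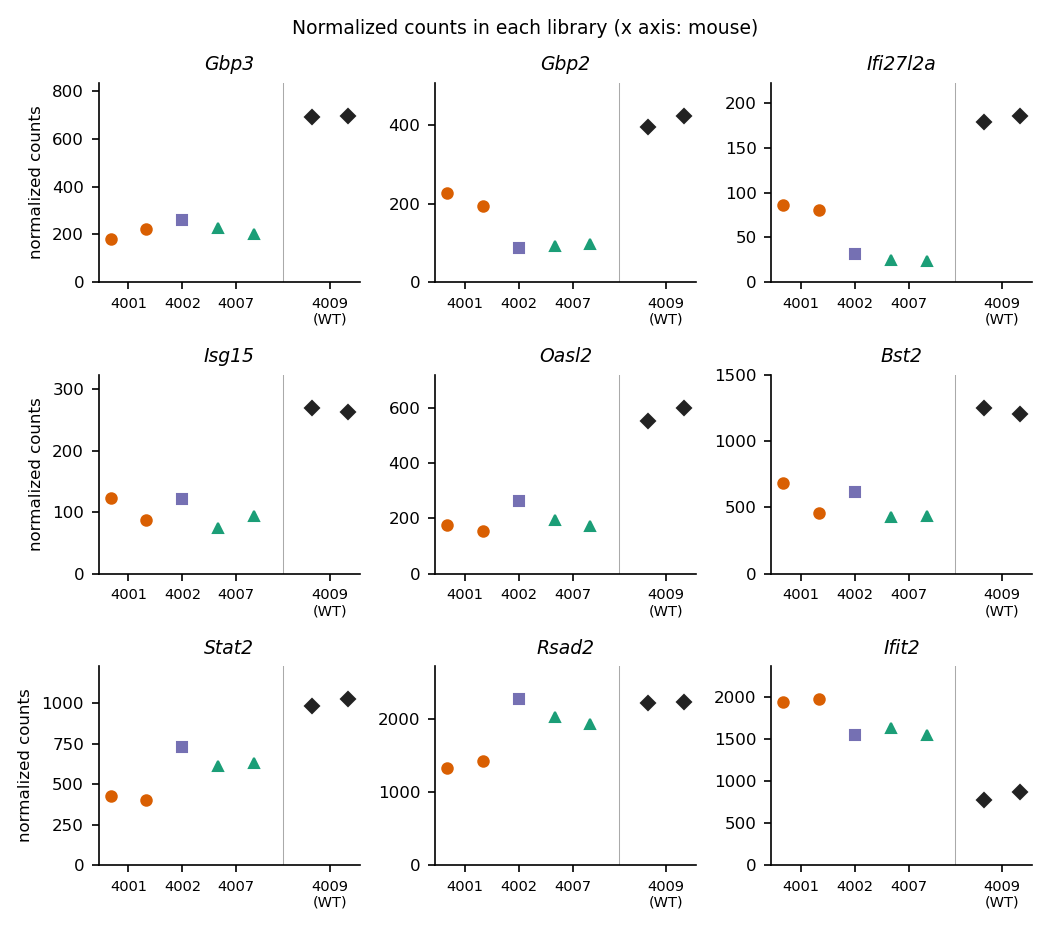
Normalized counts (y axis, from 0) of 9 members in each library, ordered by mouse (x axis), with the WT mouse right of the line; 1 point is 1 library. Gbp3, Isg15, Oasl2 and Bst2 are lower in every LBR-null library, as are Gbp2 and Ifi27l2a, less so in mouse 4001, and Stat2, most so in mouse 4001. Rsad2 is lowest in mouse 4001 and level with WT in mouse 4002, and Ifit2 is higher in every LBR-null library.

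Levels per length in the WT kidney spanned a wide range. On the scale of normalized counts per kb of exon, Ifitm3 and Bst2 were followed by Ifit3 (862), Rsad2 (514), Ifi27l2a (393), Isg15 (353) and Ifi35 (345), and the lowest were Oas1g (10.0), Mx1 (6.68) and Oas3 (3.89). With only 1 WT mouse, neighbours in this order such as Isg15 and Ifi35 cannot be ranked against any spread between animals.

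The LBR-null mice differed from each other by less than most members differed from WT. The range over the 3 mice had a median of 0.45 on the log2 scale (largest for Ifi27l2a, 1.76), while the absolute log2 fold change had a median of 0.93. Libraries of 1 mouse differed by a median of 0.24 in mouse 4001, 0.10 in mouse 4007 and 0.06 in mouse 4009. Mouse 4001 was below WT in 39 members (median log2 fold change -0.94), mouse 4002 in 36 (-0.83) and mouse 4007 in 39 (-0.91). In 36 members all 3 mice were below WT, as were 32.3% of all genes tested, and the 3 comparisons share the 1 WT mouse. Mouse 4002 was the highest of the 3 in 24 members, mouse 4001 in 12 and mouse 4007 in 5.

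Without mouse 4001, 36 members were below both WT libraries in every remaining LBR-null library, where 35.1% of all genes were, and 19 were 2-fold lower (7.47% of all genes). limma then called 11 members at an adjusted p under 0.05, of which Ifit1, Oasl2, Usp18, Gbp2, Gbp3, Iigp1, Irgm1, Bst2, Ifitm3 and Ifi27l2a were lower and Ifit2 higher. The same fit called 1118 genes in all (6.47%). Without mouse 4002 it called 716 genes (4.14%), with Oasl2 and Gbp3 as the members among them. Without mouse 4007 limma called no gene, the lowest adjusted p of a member was 0.297, and 14 members had an unadjusted p under 0.05, as did 10.6% of all genes. Mouse 4002 alone, the LBR-null mouse with Xist and Ddx3y levels like those of the WT mouse, had 15 members 2-fold lower (7.2% of all genes) and none 2-fold higher (11.8%). In that comparison, which has no test, Oas3, Rsad2 and Ifi44 were level with WT or slightly above it (log2 fold changes of 0.02, 0.03 and 0.13).

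The genes upstream of the response did not share a direction. The files list 20 interferon genes, and 10 of them were at 0 in all 7 libraries, among them Ifnb1, and only Ifng passed the filter. Ifng, interferon gamma, had 10.3 and 22.2 normalized counts in mouse 4001, 8.6 in mouse 4002 and 16.8 and 18.2 in mouse 4007, against 6.3 and 0.905 in the WT libraries (log2 fold change 1.66, SE 0.62, limma's adjusted p = 0.226). Every LBR-null library was above both WT libraries, on few reads and with WT libraries that differed 6.96-fold (8 and 1 reads). Ifna13 was at 1.15 to 5.32 normalized counts in the LBR-null libraries, 1 to 6 reads each, and at 0 in both WT libraries. A value of 0 for an interferon gene is no sign of its absence at this depth.

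Among 9 receptor and kinase genes tested 4 were lower and 5 higher, with a median log2 fold change of 0.055. None was 2-fold lower (7.04% of all genes tested) and 1 was 2-fold higher (14.5% of all genes). Ifnar1, a chain of the type I receptor, had a log2 fold change of 0.06. Ifngr1, the ligand-binding chain of the interferon gamma receptor, had 2399, 2278, 1362, 1696 and 1736 normalized counts in the LBR-null libraries and 1055 and 997 in the WT libraries (log2 fold change 0.78, SE 0.34, limma's adjusted p = 0.286). Ifnlr1, of the interferon lambda receptor, had 199.8, 171, 208, 203 and 210.5 normalized counts in the LBR-null libraries and 88.2 and 97.7 in the WT libraries (log2 fold change 1.10, SE 0.31, limma's adjusted p = 0.138). Both receptor chains were thus above WT in every LBR-null library.

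The 13 tested genes that sense nucleic acid upstream of interferon had a median log2 fold change of -0.10, with 8 lower and 5 higher. Irf5, a factor of Toll-like receptor signalling, had 32.1, 52.4, 78.2, 51.2 and 58.3 normalized counts in the LBR-null libraries and 202 and 165 in the WT libraries (log2 fold change -1.68, SE 0.46, limma's adjusted p = 0.132), the 1 gene of this list past 2-fold. Tmem173, which encodes the adaptor STING, had 124, 116, 113, 119 and 99.3 normalized counts in the LBR-null libraries and 218 and 176 in the WT libraries (log2 fold change -0.79, SE 0.32, limma's adjusted p = 0.258). Both genes were below both WT libraries in all 5 LBR-null libraries, as were 25.7% of all genes tested. Of 9 genes that restrain sensing or signalling 5 were lower and 4 higher. Rnaseh2b, a subunit of the RNase that removes RNA from DNA, had 485, 410, 310.4, 350.2 and 343 normalized counts in the LBR-null libraries and 597 and 639.6 in the WT libraries (log2 fold change -0.76, SE 0.30, limma's adjusted p = 0.247). Rnaseh2c, another subunit, had 811, 588, 677.5, 535.5 and 586 normalized counts in the LBR-null libraries and 1081 and 987 in the WT libraries (log2 fold change -0.68, SE 0.26, limma's adjusted p = 0.223). Both subunits were below both WT libraries in all 5 LBR-null libraries (25.7% of all genes tested). Rnaseh2a, the catalytic subunit, was above both (log2 fold change 0.34), as were 25.5% of all genes. Socs1, an inhibitor of the kinases, had 5.74, 5.32, 27.5, 13 and 30.1 normalized counts in the LBR-null libraries and 27.6 and 48.9 in the WT libraries, with mouse 4001 lowest and 1 library of mouse 4007 above the lower WT library.

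A list of 46 other interferon-induced genes, of which 41 were tested, went the way of the members. Here 39 were lower, 27 were below both WT libraries in all 5 LBR-null libraries (25.7% of all genes tested), 14 were 2-fold lower (7.04%) and none was 2-fold higher (14.5%), with a median log2 fold change of -0.71. The largest differences were in Gbp10 (-2.18), Tgtp2 (-2.15), Gbp4 (-2.03), Gbp8 (-1.86), Ifi203 (-1.70) and Gbp6 (-1.70), most of them further guanylate-binding proteins. Gbp10 and Gbp8 rest on few reads. Gbp10 was at 0 to 11.5 normalized counts in the LBR-null libraries and 22.1 and 31.7 in the WT libraries. Gbp8 was at 3.44 to 7.45 against 14.2 and 25.3. Gbp9, of the same family, had a smaller difference (-0.52). Gbp4 had 96.5, 103, 135, 115.5 and 103 normalized counts in the LBR-null libraries and 453 and 482 in the WT libraries (log2 fold change -2.03, SE 0.33, limma's adjusted p = 0.0906). Tgtp2 has a near-identical copy, Tgtp1, which was listed at 0 in every library, so the value may stand for both. The 2 genes above 0 were Ifitm1 (0.75) and Oas1c (0.61), each above both WT libraries in all 5 LBR-null libraries (25.5% of all genes).

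**Figure D5:**
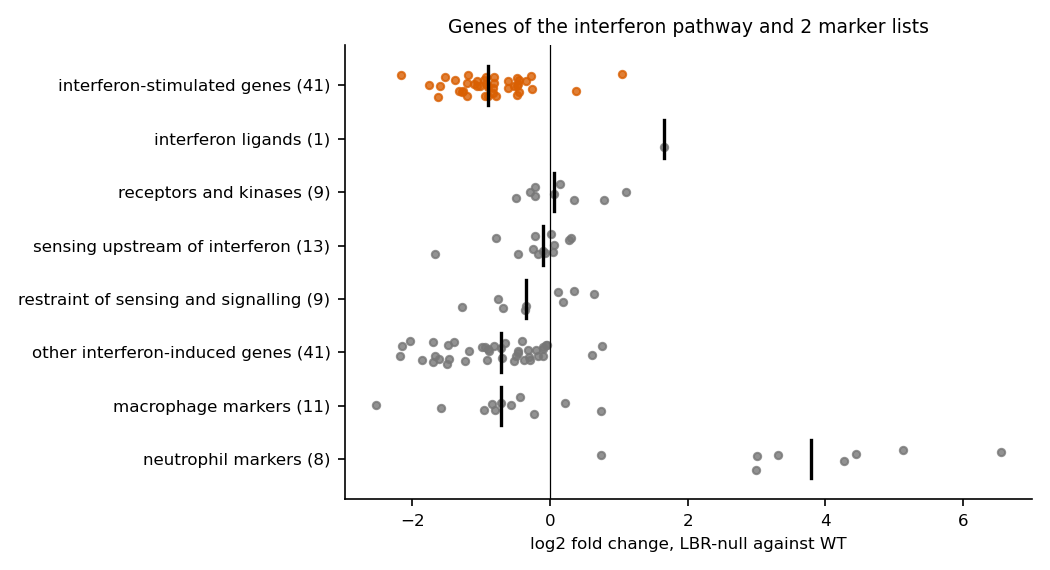
Log2 fold change of LBR-null against WT kidneys (x axis) for the members, 5 lists of interferon pathway genes and 2 marker lists (y axis, number tested in brackets); points are genes and bars are medians. The members and the other interferon-induced genes lie mostly left of 0 (medians -0.91 and -0.71), the receptor and sensing lists around it, and the neutrophil markers right of it.

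Markers of immune cells differed as well. Of 11 macrophage markers found, 9 were lower and 8 were below both WT libraries in all 5 LBR-null libraries, where 25.7% of all genes tested were (log2 fold changes of -2.52 for Aif1, -1.59 for Cx3cr1 and -0.97 for C1qc), and none was at 0 in all libraries. Cd14 and Lyz2 were above both WT libraries in all 5 LBR-null libraries. The 8 neutrophil markers had log2 fold changes above 0, and 7 were above both WT libraries in all 5 LBR-null libraries (Ltf overlapped, and 25.5% of all genes were above both), with sums of 411 to 2639 against 79.6 and 85.1, and none of the 8 was at 0 in all libraries. Of 8 T and NK cell markers 6 were tested and 4 of these had log2 fold changes below 0, with sums of 112 to 162 against 219 and 220.5. Cd8a made up most of the WT sums (24.1 to 69.6 against 134 and 136 normalized counts), and the other 7 summed to 85.2 to 119 against 83.2 and 86.6, with Cd3g and Nkg7 below both WT libraries in all 5 LBR-null libraries and Cd3e, Gzma and Ncr1 above both. The 5 B cell markers had log2 fold changes below 0, with Cd79a and Pax5 below both WT libraries in all 5 LBR-null libraries, and sums of 70.1 to 160 against 168 and 175. Their part in the levels of the interferon-stimulated genes was not tested.

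Of 6 plasmacytoid dendritic cell markers 3 were lower and 3 higher, and the sum (42920 to 54020 against 83020 and 86480) was mostly Klk1, which kidney tubules also make. Cox6a2, from the same list, was at 2788 and 2171 normalized counts in mouse 4001 and 39.2 to 92.9 in the other 5 libraries. Siglech, the defining marker, was listed at 3.73 to 15.1 normalized counts in the LBR-null libraries and 6.30 and 7.24 in the WT libraries. Spib, a transcription factor of these cells and of B cells, was at 2.79 to 8.20 normalized counts in the LBR-null libraries and 16.5 and 15.4 in the WT libraries, without overlap. Of 5 endothelial markers 4 were lower, with sums of 13230 to 15550 against 16090 and 16100. The 8 kidney markers summed to 114100 to 209000 against 192400 and 193400, with 5 lower, among them the proximal tubule genes Slc34a1 (-1.67) and Lrp2 (-1.59). The part of these lists in the result was not tested either.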

How the data were processed

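Total RNA of the right kidney was poly(A)-selected and sequenced as 150 bp paired ends. Per the labels and methods, STAR 2.6.0 placed the reads on mm9, and the signal per gene that the authors deposited is a count divided by the library's DESeq2 1.25.1 size factor. The counting program, its annotation, its use of strand and its treatment of reads that fit several genes are not given in the sources used here. All deposited values were whole multiples of the lowest value of their library (100.0% within 0.01), so whole reads were recovered. Libraries were averaged per mouse, and limma 3.58.1 (trend, 2 residual degrees of freedom, Benjamini-Hochberg adjustment over 17283 genes) was run on log2(value + 1) in R 4.3.3. p-values measure the spread between these mice. edgeR 4.0.16 and DESeq2 1.42.0 were run on recovered reads summed per mouse, and DESeq2 left 671 genes without an adjusted p. The limma, edgeR and DESeq2 fits were tested on simulated counts. Gene positions and exon lengths are from GENCODE vM1 models in mm9, and promoters from RefSeq. Every member is named with its role group, and library values are given for the 12 members with the largest absolute log2 fold change and for Isg15, Stat2, Irf9, Irf1, Ifitm3 and Bst2, with others shown where a sentence turns on them. Of each pathway list at most 6 genes past 2-fold or at an unadjusted p under 0.05 are named, and Ifng, Ifnb1, Ifnar1 and Ifngr1 in any case, apart from genes named after their values were seen. Of the lists, 2 genes are not reported here and were left out of the list counts. The members, lists and tests were chosen with earlier results of these data known. Alternatives were pseudocounts of 0.5 and 5, no filter or a mean of at least 20, equal totals, TMM scaling, both count tools, each mouse or library left out, and mouse 4002 alone.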

Additional observations from a re-analysis of the deposited data

Results flagged for a closer look

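Among the 5 LBR-null libraries, 41 members were searched for a library far from the others by Dixon's ratio, and 1 was found. Oasl1 was at 63.0 normalized counts in library 2 of mouse 4001, while the other 4 libraries, including the other one of that mouse, were at 36.5 to 43.8. Chance flags about 1 in 20 groups, and libraries of a mouse are not independent. The Oasl1 value was still below both WT libraries (75.6 and 90.5).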

How the results depend on the processing

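No paired analysis was possible because the fit is on mouse means and the numbers in the labels (rep1, rep2) count libraries within each mouse, so they pair no mice. The number of members 2-fold lower stayed between 13 and 19 in every alternative, main value 16, and the member median between -0.95 and -0.83. limma's count of genes over all genes was 0, while edgeR gave 28 (1 higher and 27 lower), DESeq2 gave 1173 (563 higher and 610 lower), and leaving out a mouse or library gave 0 to 1118. It was 1118 without mouse 4001, 716 without mouse 4002, 29 without library 2 of mouse 4007 and 1 without library 1 of mouse 4009, fits with fewer samples, and the cause was not tested. The count of members 2-fold higher was 0 to 1 when a mouse or library was left out (0 without mouse 4001 or without library 1 of mouse 4009) and 0 with mouse 4002 alone, since Ifit2 lies close to 2-fold. The member median was -0.952 to -0.841 when a mouse or library was left out and -0.831 with mouse 4002 alone. By mouse means 2 members were above WT in every LBR-null mouse, Ifit3 joining Ifit2. With mouse 4002 alone, Oas3 (0.019), Rsad2 (0.029) and Ifi44 (0.128) changed sign. Of 735 alternative values of single members, 693 kept their direction and side of the threshold, and 26 passed it only in the alternative. Mouse 4002 alone has no test, so its values count among the 693 where they moved by less than the spread between mice. Of its other values 13 moved by more than that and 3 changed sign. Equal totals and TMM scaling moved the median of all genes by -0.007 and -0.014. Depth limits the interferon genes and Oas3, Oas1g, Mx1, Gbp8 and Gbp10, and the design has 1 WT mouse.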

Other observations

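Some groups within the list of other interferon-induced genes stood out when their values were read, and they were chosen for that. The enzymes that load ISG15 were lower along with Isg15 itself. Ube2l6, its conjugating enzyme, had 256, 215, 371, 253 and 287 normalized counts in the LBR-null libraries and 887.5 and 882 in the WT libraries (log2 fold change -1.62, SE 0.33, limma's adjusted p = 0.106), and Uba7, its activating enzyme, had 187, 198, 446, 272 and 293.5 normalized counts in the LBR-null libraries and 598 and 559 in the WT libraries (log2 fold change -0.995). The immunoproteasome subunits Psmb8 and Psmb9 had log2 fold changes of -1.49 and -1.50, and Tap1, the peptide transporter next to them on the pathway of antigen presentation, -0.81. All of these were below both WT libraries in all 5 LBR-null libraries, as were 25.7% of all genes tested.

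The chemokines that interferon gamma induces did not follow that pattern. Cxcl10 had 203, 134, 42.1, 53.1 and 63.8 normalized counts in the LBR-null libraries and 108 and 103 in the WT libraries, and Cxcl9 had 44.8, 57.7, 17.2, 29.8 and 16.4 normalized counts in the LBR-null libraries and 33.9 and 53.4 in the WT libraries. In both genes mouse 4001 held the highest LBR-null libraries, within or above the WT range, and mice 4002 and 4007 were below both WT libraries. Cxcl11 was at 6.89 to 15.5 normalized counts in the LBR-null libraries and 12.6 and 14.5 in the WT libraries. Both libraries of mouse 4001 (6.89 and 7.10) and library 1 of mouse 4007 (9.31) were below both WT libraries, and the others reached or passed the WT range.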
